A study of Mus musculus with 6 samples.

Results

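The genes described here are the mouse Wnt ligands and the proteins that release, receive, limit and execute their signal: Wnt and frizzled genes, the coreceptors Lrp5, Lrp6, Ror1, Ror2 and Ryk, the R-spondins and their Lgr receptors, secreted and intracellular inhibitors, and the TCF/LEF transcription factors. They were taken by gene name, with no filter on their values, and the rule found 65 of the 55487 rows of the expression table. The names, and the lists of other genes and markers used below, were chosen with earlier results of these data known. RNA was sequenced from yellow fluorescent protein positive cells that were sorted from the subventricular zone (SVZ), the neural stem cell niche along the lateral ventricle of the adult brain. Every library shared the tamoxifen treatment, NestinCreERT2, a Cre recombinase that the Nestin promoter drives and that tamoxifen switches on, the R26;EYFP reporter and a mixed C57BL/6;Sv/129;FVB/N background. Mice were 6 to 10 weeks old at the start, were gavaged with tamoxifen on 5 days at a daily 200 mg/kg, and gave tissue 10 days after the last dose.

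The heterozygous group, E2F1(+/-);E2F3(F/+), and the knockout group, E2F1(-/-);E2F3(F/F), had 3 libraries each, lettered A, B and C. The heterozygous mice therefore carried 1 mutant E2F1 allele and 1 floxed E2F3 allele themselves, no wild-type group was analysed here, and E2F1 and E2F3 differed together between the groups. Each library pooled several mice, with at least 200000 sorted cells and 35 ng of RNA. The labels do not say whether the pools came from separate litters or days, so the p-values measure the spread between these pools.

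As background, Wnt proteins are lipid-modified secreted ligands that bind frizzled receptors together with a coreceptor. In the canonical branch the signal stops the Axin and Apc complex from destroying β-catenin, which then joins TCF/LEF factors on target genes, and several of those targets, Axin2, Nkd1, Notum, Znrf3 and Apcdd1 among them, encode inhibitors that feed back on the pathway. Noncanonical branches act through Ror, Ryk and planar cell polarity proteins. In the adult SVZ, Wnt signals have been tied to the choice of stem cells between quiescence and division, and E2F1 and E2F3 are activators of cell-cycle genes.

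The 6 libraries held between 19798675 and 25982361 reads assigned to genes, and between 22973 and 25362 rows with a read. E2f1 itself was read at 1152, 1388 and 1030 normalized reads in heterozygous libraries A, B and C and at 375, 483 and 516 in knockout libraries A, B and C (log2 difference -1.38, adjusted p = 0.00559 by limma), so every knockout library lay below every heterozygous one, with reads still left. E2f3 was read at 293, 205 and 253 against 324, 231 and 245 (log2 difference 0.09, adjusted p = 0.845), and since a whole-gene count can include exons outside the floxed part, it does not check that allele. Neuroblast markers summed to between 107804 and 180266 normalized reads in the heterozygous libraries and between 19668 and 25871 in the knockout libraries, and all 18 tested genes of that list fell. Markers of dividing cells summed to 30412 to 53022 against 5150 to 9342 (12 of 12 tested genes fell), and those of quiescent stem cells and astrocytes to 535087 to 759105 against 734406 to 1132039. Of these 16 genes 2 rose by limma, where 7.23% of all tested rows rose, and edgeR called 2 and DESeq2 8. All 16 differences were positive, against 52.3% of all tested rows.

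Of the 65 members, 50 had a mean of at least 10 normalized reads and were tested, and 15 did not reach that mean. Dkkl1, Fzd10, Lgr5 and Wnt10a reached it only through the group in which they were high, the mean of the other group being under 10, so that being tested went with a difference. In the knockout cells 9 rose, namely Wnt4, Wnt9a, Fzd5, Fzd6, Fzd10, Notum, Sfrp5, Tcf7l1 and Tcf7l2, where 7.23% of all 18227 tested rows rose. Wnt5a and Wnt10a fell, where 8.59% of all rows fell. These calls are limma's at an adjusted p under 0.05 on log2(normalized reads + 1), with adjustment over all tested rows. Of the 46 members with a mean of at least 10 in both groups, 8 rose and 1, Wnt5a, fell. The knockout values lay above the heterozygous values without overlap in 15 members (18.5% of all rows) and below them in 7 (20.2% of all rows). A positive difference was found in 36 of the 50 members, against 52.3% of all rows, and the median difference was 0.54 on the log2 scale, against 0.05 over all rows. In a bulk sample, fewer cells of a type and less RNA per cell cannot be told apart, so each difference below is one of the sorted population.

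**Figure D1:**
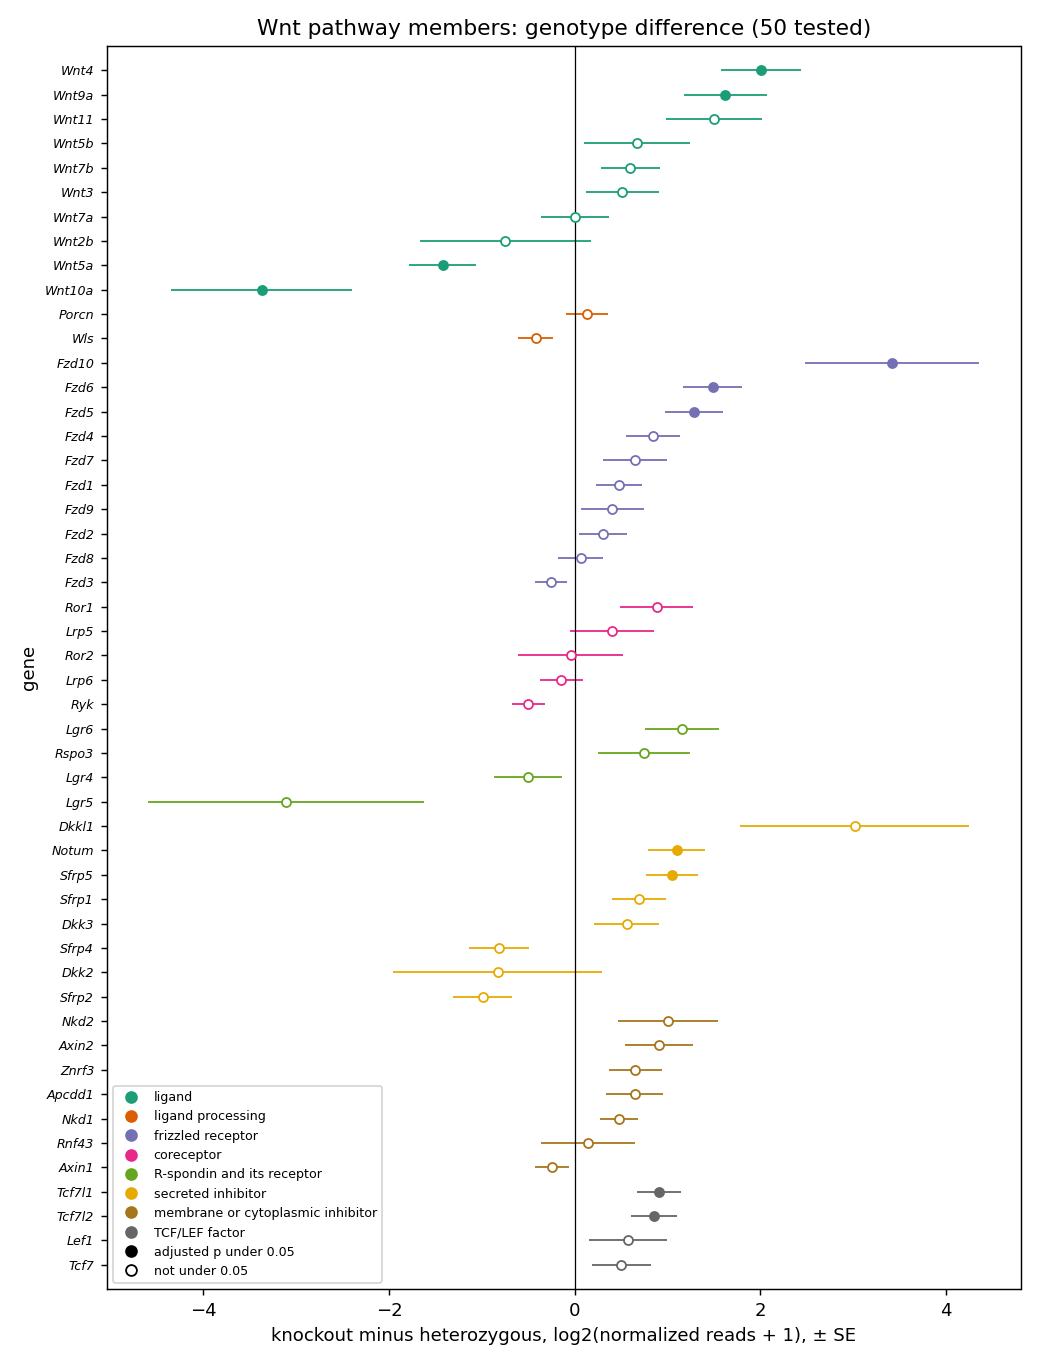
Difference between knockout and heterozygous libraries in log2(normalized reads + 1) for the 50 tested members, grouped and coloured by role, with bars of 1 standard error. Filled points have an adjusted p under 0.05 by limma: 9 lie to the right of 0 and 2, Wnt5a and Wnt10a, to the left.

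The number of calls depended on which library was left out. Without heterozygous library A, B or C, limma called 2, 0 and 6 members, of which 1, 0 and 6 were among the 11. Without knockout library A, B or C it called 10, 0 and 11, of which 8, 0 and 7 were among the 11. The share of all rows called moved in the same fits, to 4.97%, 3.46% and 12.8% without each heterozygous library and to 12.4%, 3.83% and 21.9% without each knockout library. In the 2 fits with no called member, 17 and 15 members had an unadjusted p under 0.05. With all libraries 23 of the 50 members did, and so did 6085 of all 18227 tested rows. The counts at an unadjusted p given further on have that same background, so they are not counts against 0.05 of the rows. On the reads recovered from the table, edgeR called 9 of 48 members (16.0% of all rows) and DESeq2 19 of 52 (21.6%). The members called by edgeR were all among the 11 of limma, and DESeq2 called all 11.

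The 250 bases before the annotated start are given for called members whose window overlaps no annotated exon, and for Wnt11, the other member with E2F letters, to show where letters of an E2F or TCF/LEF site lie in these genes. Sequences are from RefSeq, build GRCm38.p6, in the direction of transcription, and 43 of the 65 members had an entry, with 52 windows. The E2F letters searched were TTTGGCGC, TTTCCCGC, TTTGCCGC and TTTCGCGC, and the TCF/LEF letters were CTTTG with AA, AT, TA or TT after it, each on both strands. Sfrp5 held TTTCCCGC on the opposite strand, printed as capitals in its own strand, 41 to 34 bases before the start. The first Tcf7l2 window held no match, and the second, at an internal start, held CTTTGTT 14 to 8 bases before it. One window of Wnt11, at an internal start, held TTTCGCGC 160 to 153 bases before it. The Wnt11 window before the start of the gene is not printed. It held no E2F letters, and CTTTGAT on the opposite strand 51 to 45 bases before the start. Capitals mark the letters in the windows printed.
Sfrp5, chr19:42202253-42202502, minus strand: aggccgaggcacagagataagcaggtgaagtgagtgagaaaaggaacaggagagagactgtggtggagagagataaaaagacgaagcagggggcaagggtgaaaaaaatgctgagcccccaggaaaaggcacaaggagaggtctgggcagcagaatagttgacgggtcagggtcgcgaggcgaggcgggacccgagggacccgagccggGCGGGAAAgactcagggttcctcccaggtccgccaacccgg
Tcf7l2, chr19:55741560-55741809, plus strand: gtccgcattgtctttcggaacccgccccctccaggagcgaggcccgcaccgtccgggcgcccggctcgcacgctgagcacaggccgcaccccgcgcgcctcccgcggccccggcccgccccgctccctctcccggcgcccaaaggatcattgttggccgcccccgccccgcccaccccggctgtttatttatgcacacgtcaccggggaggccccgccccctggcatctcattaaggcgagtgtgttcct
Tcf7l2, chr19:55895071-55895320, plus strand: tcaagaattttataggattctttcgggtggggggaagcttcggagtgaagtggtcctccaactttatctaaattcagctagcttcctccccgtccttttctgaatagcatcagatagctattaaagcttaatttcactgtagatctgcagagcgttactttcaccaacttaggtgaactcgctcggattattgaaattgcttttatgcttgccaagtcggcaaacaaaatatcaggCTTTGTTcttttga
Wnt11, chr7:98838595-98838844, plus strand: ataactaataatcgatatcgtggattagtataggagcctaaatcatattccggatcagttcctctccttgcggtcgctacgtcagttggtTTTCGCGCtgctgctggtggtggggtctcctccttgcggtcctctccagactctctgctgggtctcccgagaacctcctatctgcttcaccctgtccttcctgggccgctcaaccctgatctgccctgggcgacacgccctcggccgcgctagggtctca
The E2F letters occurred in 2 of the 52 member windows and in 1.86% of all 32851 windows, and the TCF/LEF letters in 6 of 52 and in 14.8% of all. The median share of G and C bases was 65.2% in the member windows and 52.4% in all windows. These shares of windows were not adjusted for that difference. A match describes these letters, not a bound site.

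Among the ligands, 2 rose and 2 fell of the 10 that were tested, where 7.23% of all rows rose and 8.59% fell. Wnt4, whose product acts in female reproductive tract and kidney development and signals through either branch, had the smallest p of the ligands (chr4:137277489-137299726, GRCm38). It was read at 393, 241 and 319 normalized reads in heterozygous libraries A, B and C and at 2329, 1376 and 621 in knockout libraries A, B and C. The groups did not overlap, and the knockout libraries were spread widely, A being the highest and C the lowest. The means were 318 ± 76.2 and 1442 ± 856 (SD, n = 3 each), a 4.03-fold difference (log2 2.01 ± 0.43, SE, adjusted p = 0.0168 by limma). The call was lost without heterozygous A (adjusted p = 0.0501), heterozygous B (0.0956) or knockout B (0.0667).

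Wnt9a, a ligand studied in joint and blood stem cell development (chr11:59306928-59333552), was read at 59.5, 81.3 and 28.0 in the heterozygous libraries and at 173, 179.9 and 134 in the knockout libraries. All knockout libraries lay above all heterozygous ones, and heterozygous C was the lowest of the 6. The difference was 3.09-fold (log2 1.63 ± 0.45, adjusted p = 0.0398), and it was called in the fit without knockout C (adjusted p = 0.0306) but in none of the other 5 fits that left out a library, where the adjusted p ran from 0.0642 to 0.147.

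Wnt5a, the main noncanonical ligand (chr14:28504750-28527448), moved the other way. Its reads were 1009.9, 672 and 501 in the heterozygous libraries and 416, 225 and 187 in the knockout libraries. The groups did not overlap, although heterozygous C and knockout A were close. The means were 728 ± 259 and 276 ± 122 (SD, n = 3 each), so Wnt5a was 2.68-fold lower in knockout cells (log2 -1.42 ± 0.36, adjusted p = 0.0302). Its adjusted p was 0.112 without heterozygous A, 0.111 without heterozygous B and 0.112 without knockout B.

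Wnt10a, a canonical ligand known from tooth, hair and fat (chr1:74791516-74804179), was a low-count gene with 53, 51 and 32 reads in the heterozygous libraries and 0, 5 and 14 in the knockout libraries. Every knockout library lay below every heterozygous one, and knockout A held no read. Its normalized means were 45.1 ± 11.5 and 6.21 ± 7.24 (SD, n = 3 each), and its log2 difference was -3.37 ± 0.98 (adjusted p = 0.0455). It was tested only because of its heterozygous level, and with 0.5 in place of 1 added to the reads the call was lost (log2 -3.75, adjusted p = 0.0587), while with 5 the difference was -2.35. Over all alternatives the difference ran from -4.27 to -2.31. On the recovered reads edgeR did not call it (adjusted p = 0.0796), and of the 6 fits that left out 1 library limma called it in the one without knockout C (adjusted p = 0.00768), while the other adjusted p ran from 0.0579 to 0.155.

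The 6 other tested ligands were not called. Wnt7b, the ligand with the highest level per kilobase of exon, was read at 1904, 1511 and 2091 against 1744, 2648 and 4530 normalized reads (log2 0.60 ± 0.32, adjusted p = 0.214), with knockout A inside the heterozygous range and knockout C above every other library. Its close relative Wnt7a was read at 1077, 922 and 1295 against 561, 1478 and 1564 (log2 0.00 ± 0.37, 95% interval -0.82 to 0.83), so knockout A was the lowest of the 6 libraries and knockout C the highest. Both are canonical ligands that act in brain vessel formation. Wnt11, another noncanonical ligand, was read at 55.5, 123 and 65.0 against 411, 232 and 109, with knockout C inside the heterozygous range (log2 1.51 ± 0.52, adjusted p = 0.0757). Wnt5b, Wnt3 and Wnt2b had differences of 0.67, 0.52 and -0.75 on the log2 scale with adjusted p of 0.439, 0.385 and 0.602, and their groups overlapped.

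**Figure D2:**
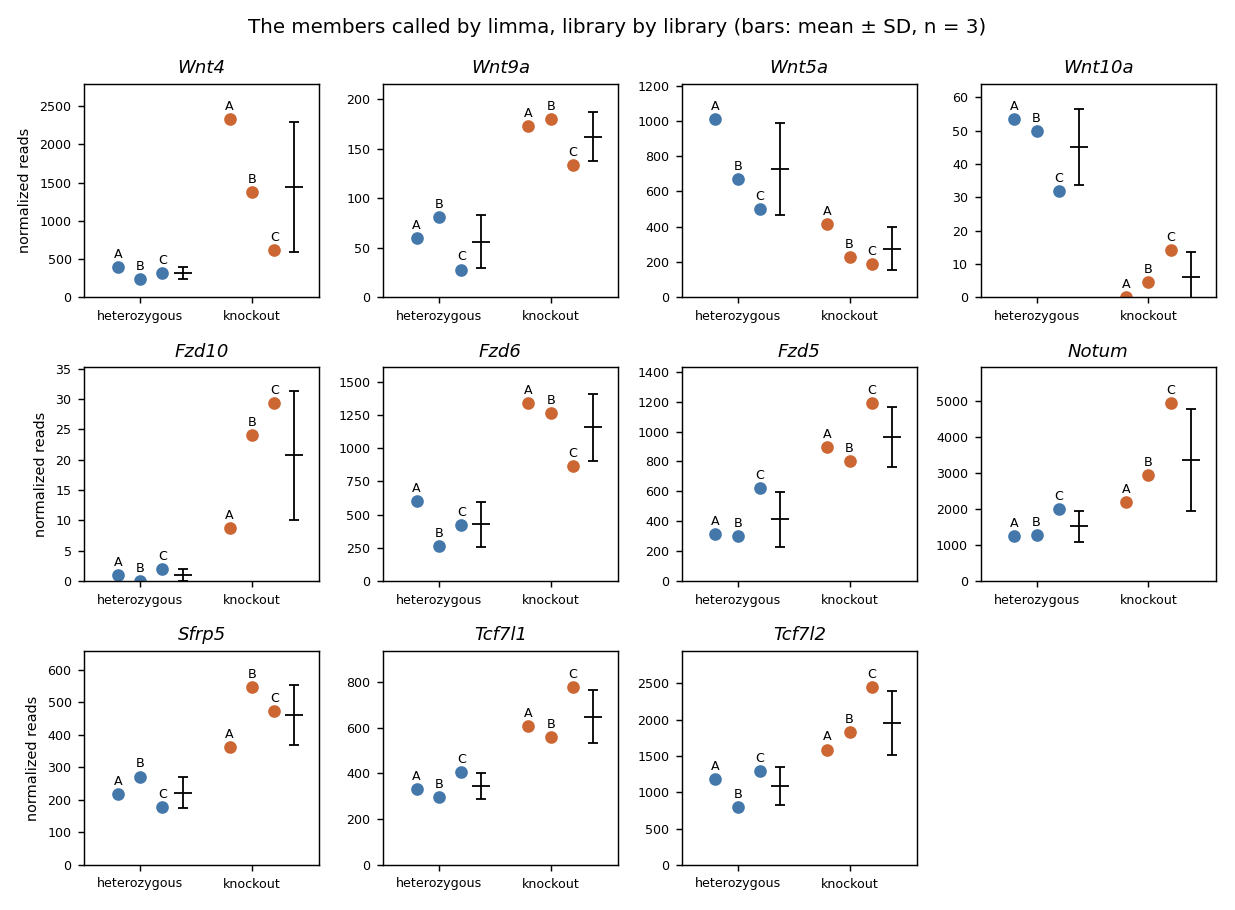
Normalized reads of the 11 called members in each library (points lettered A to C), with bars for the mean ± SD of the 3 libraries of each genotype. The axes are linear and start at 0, where the lower end of the bar for knockout Wnt10a is hidden; in every panel the 3 knockout points lie all above or all below the 3 heterozygous points, and the Wnt4 knockout points run from 621 to 2329.

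Of the 2 genes of ligand processing, limma called none (0 at an unadjusted p under 0.05, 0 by edgeR and 0 by DESeq2). Wls, the carrier that takes Wnt proteins to the cell surface, was read at 5222, 4691 and 4183 against 2964, 3535 and 4092, with the knockout libraries below the heterozygous ones and knockout C only just so (log2 -0.42 ± 0.19, adjusted p = 0.154). Porcn, the enzyme that attaches the lipid to Wnt proteins, differed by 0.13 ± 0.23 (adjusted p = 0.71), and its groups overlapped.

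All 10 frizzled receptors were tested, 3 rose (7.23% of all rows rose) and 7 were not called. Of the 10 differences 9 were positive, against 52.3% of all rows. Among the 3 was Fzd10, which was tested only because of its knockout level, and edgeR called 2 frizzleds, without Fzd10. Fzd6, a receptor of planar cell polarity in skin and hair (chr15:39006034-39038188), was read at 600.3, 261 and 422 normalized reads against 1338, 1262 and 867. Its lowest knockout library, C, stood above its highest heterozygous library, A. The means were 428 ± 170 and 1156 ± 253 (SD, n = 3 each), 2.81-fold higher in the knockout cells (log2 1.49 ± 0.32, adjusted p = 0.0175). The fits without heterozygous B or knockout B lost the call (adjusted p = 0.0666 and 0.0778).

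Fzd5, a receptor for canonical signals in the eye and gut (chr1:64730558-64737751), was read at 315, 299.8 and 622 against 895, 805 and 1191. Library C was the highest within each genotype, and the groups did not overlap. The difference was 2.44-fold (log2 1.29 ± 0.31, adjusted p = 0.0259), and the call was lost without heterozygous A (adjusted p = 0.0938), heterozygous B (0.111) or knockout B (0.0708). Fzd10, which the sorted cells held at the edge of detection (chr5:128600844-128604093), had 1, 0 and 2 reads in the heterozygous libraries and 8, 27 and 29 in the knockout libraries. The summed reads gave a ratio of 21.3, scaled for library size, with an exact 95% interval of 6.95 to 106 that covers counting error only. Fzd10 was tested only because of its knockout level, and its log2 difference rested on the constant added to the reads: 3.42 ± 0.94 with 1 (adjusted p = 0.0379), 3.94 with 0.5 and 2.01 with 5. Its call is therefore given as a value and supports nothing further. On the recovered reads edgeR's filter on low counts left it out, and of the leave-out fits of limma the one without knockout A called it (adjusted p = 0.0444). Without knockout B or C it fell under the mean of 10 and was not tested.

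Fzd4, the Norrin receptor of vessels and retina, was read at 405, 207 and 308 against 483, 499.5 and 628, without overlap but past no threshold (log2 0.85 ± 0.29, adjusted p = 0.0749). Fzd2, the frizzled with the highest level per kilobase, was read at 1876, 2197 and 2239.9 against 1793, 2629 and 3709 (log2 0.31 ± 0.26, adjusted p = 0.432), and knockout A lay below every heterozygous library. Fzd1, Fzd7, Fzd9 and Fzd8 differed by 0.48, 0.65, 0.41 and 0.06 on the log2 scale with overlapping groups. Fzd3, a receptor of axon guidance, was the one frizzled with a negative difference (-0.26 ± 0.17, adjusted p = 0.325), and its knockout values lay below its heterozygous ones.

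None of the 5 coreceptors was called by limma (2 at an unadjusted p under 0.05, 0 by edgeR and 0 by DESeq2), and their median difference was -0.04. Ryk, an atypical kinase that binds Wnt5a and other Wnt proteins, was read at 1334, 1381 and 1499 against 936, 1057 and 992. The knockout libraries all lay below the heterozygous ones (log2 -0.50 ± 0.18, adjusted p = 0.0827). Ror1, a receptor for Wnt5a, was read at 42.4, 38.2 and 49.98 against 75.7, 83.7 and 83.0, with all knockout libraries above (log2 0.88 ± 0.39, adjusted p = 0.148). The canonical coreceptors Lrp6 and Lrp5 differed by -0.14 (95% interval -0.66 to 0.37) and 0.41, and Ror2 by -0.04, a sign that turned under edgeR and DESeq2.

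R-spondins bind Lgr receptors and hold the ligases Rnf43 and Znrf3 away from frizzleds, which raises Wnt signalling. Of the 7 genes, 4 were tested and limma called none (1 at an unadjusted p under 0.05, 0 by edgeR and 2 by DESeq2). Lgr6 was read at 45.4, 56.8 and 89.0 against 109.7, 169 and 141, with no overlap (log2 1.16 ± 0.40, adjusted p = 0.0758). Lgr4, the highest of these genes per kilobase, was read at 569, 417 and 674 against 240.2, 356 and 658 (log2 -0.50 ± 0.37, adjusted p = 0.366), and knockout C lay within the heterozygous range. Lgr5, the stem cell marker of gut and hair, had 69 reads over the heterozygous libraries and 1 over the knockout libraries, but heterozygous A held 0, as did knockout A and C. Its log2 difference was -3.11 ± 1.49 (adjusted p = 0.176), limma called it without heterozygous A (adjusted p = 0.044), and DESeq2 called it. Rspo3 differed by 0.75 (adjusted p = 0.312).

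Some secreted inhibitors act on Wnt proteins themselves, and others, such as Dkk1, on the coreceptors Lrp5 and Lrp6. Of 11 genes, 8 were tested, 2 rose (7.23% of all rows rose) and 6 were not called. Notum, an enzyme that removes the lipid from Wnt proteins (chr11:120653788-120661175), was read at 1259, 1287 and 2003 against 2191, 2951 and 4943. Library C was the highest of each genotype, and knockout A stood just above heterozygous C. The means were 1516 ± 422 and 3361 ± 1422 (SD, n = 3 each), 2.14-fold higher in the knockout cells (log2 1.10 ± 0.31, adjusted p = 0.0411). The call was lost without heterozygous A (adjusted p = 0.133), heterozygous B (0.156), knockout B (0.112) or knockout C (0.053). The genes Notumos and Myadml2os run on the opposite strand over 29.4% and 8.72% of the Notum exon bases, and since the library kit does not mark strand, their reads cannot be told from those of Notum. Notumos was itself read at a mean of 172.

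Sfrp5, a secreted frizzled-related protein that binds Wnt ligands (chr19:42197971-42202252), was read at 217, 271 and 178 normalized reads against 363, 547 and 474. The groups lay apart, with knockout A nearest to the heterozygous range. The window before its start held TTTCCCGC on the opposite strand. The means were 222 ± 47.0 and 461 ± 92.5 (SD, n = 3 each), a 2.07-fold difference (log2 1.05 ± 0.28, adjusted p = 0.0345). The call was lost in 4 of the 6 fits that left out a library: heterozygous A (adjusted p = 0.0957), heterozygous B (0.0662), heterozygous C (0.085) and knockout B (0.158). Sfrp2 and Sfrp4, of the same family, were read lower: Sfrp2 at 163, 240.1 and 182 against 93.2, 109 and 89.0 (log2 -0.99 ± 0.32, adjusted p = 0.0622) and Sfrp4 at 233, 164 and 289.9 against 114, 145 and 120.4 (log2 -0.82 ± 0.32, adjusted p = 0.111). In both the groups did not overlap, and neither passed the threshold.

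Dkk3, a secreted protein of the Dickkopf family, had the highest level per kilobase of all members, and was read at 18718, 12812 and 20379 against 14984, 25585 and 41160. Knockout A lay within the heterozygous range and knockout C above all other libraries (log2 0.56 ± 0.35, adjusted p = 0.286). Sfrp1 had the same order among the knockout libraries, with 8382, 5804 and 8636 against 8036, 12438 and 17774 (log2 0.69 ± 0.29, adjusted p = 0.133). Dkkl1, a testis gene related to Dkk3, was read at 0, 4.90 and 8.00 against 117, 38.3 and 5.06, so that knockout A and B were high while knockout C was within the heterozygous range (log2 3.02 ± 1.23, adjusted p = 0.12). Dkk2 differed by -0.83 (adjusted p = 0.637).

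Of the 7 inhibitors at the membrane or in the cytoplasm, limma called none, edgeR 0 and DESeq2 1. An unadjusted p under 0.05 was found for 3 of them, and for 6085 of all 18227 rows. Of the 7 differences 6 were positive (52.3% of all rows), and the median was 0.65 (0.05 over all rows). Axin2, a scaffold of the β-catenin destruction complex that is widely used as a readout of canonical signalling, was read at 159, 90.1 and 225 against 262, 265 and 313 (log2 0.91 ± 0.36, adjusted p = 0.113). Nkd1, which binds Dishevelled, was read at 728, 908 and 1018 against 1266, 1062 and 1361 (log2 0.48 ± 0.21, adjusted p = 0.141). Znrf3, the ligase that removes frizzleds from the surface, was read at 607, 333 and 649 against 684, 896 and 836 (log2 0.65 ± 0.28, adjusted p = 0.142). In these 3 genes every knockout library lay above every heterozygous one, by a small margin, and none of the 3 passed the threshold.

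Nkd2 and Apcdd1, another pair of inhibitors, were high in knockout A and B and not in C. Nkd2 was read at 152, 218 and 242 against 884, 472 and 158 (log2 1.01 ± 0.54, adjusted p = 0.219), and Apcdd1 at 1164, 1132 and 782 against 2178, 1845 and 984 (log2 0.65 ± 0.31, adjusted p = 0.172). Axin1, the other Axin and the highest of these genes per kilobase, was read at 1576, 1680.5 and 1620.2 against 1221, 1288 and 1644 (log2 -0.24 ± 0.19, adjusted p = 0.388), with knockout C within the heterozygous range. Rnf43, the ligase related to Znrf3, differed by 0.14 (adjusted p = 0.864).

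All 4 TCF/LEF factors had positive differences (52.3% of all rows did), and 2 of them rose (7.23% of all rows rose). Tcf7l1, the member known mainly as a repressor that keeps targets silent in the absence of β-catenin (chr6:72626378-72789254), was read at 333, 295 and 406 against 608, 560.1 and 778. Library C was the highest of each genotype, and the groups lay well apart. The means were 345 ± 56.3 and 649 ± 115 (SD, n = 3 each), 1.88-fold higher in the knockout cells (log2 0.91 ± 0.24, adjusted p = 0.0347). It was called without heterozygous C (adjusted p = 0.0437) but lost in each of the other 5 leave-out fits (0.0528 to 0.111).

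Tcf7l2, which activates or represses depending on β-catenin (chr19:55741820-55933654), was read at 1180.4, 794 and 1286 against 1587, 1825 and 2449. All 3 knockout libraries lay above all heterozygous ones. The difference was 1.80-fold (log2 0.85 ± 0.25, adjusted p = 0.0457), and of the leave-out fits the one without knockout A called it (adjusted p = 0.0383), while the other 5 gave 0.0517 to 0.145. Lef1 and Tcf7, known mainly as activators, were highest in knockout A and overlapped between the groups. Lef1 was read at 215, 152 and 185 against 525, 238 and 162 (log2 0.58 ± 0.42, adjusted p = 0.362), and Tcf7 at 244, 196 and 199.9 against 449, 283 and 216 (log2 0.50 ± 0.32, adjusted p = 0.297).

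The 15 members below the mean of 10 normalized reads were left out by that filter. Rspo2, Rspo4, Wnt10b and Wif1 were at 0 in all 6 libraries, which allows up to 3 reads over each group and does not show absence. Wnt8a, a ligand of the early embryo, had 0 reads in the 3 heterozygous libraries and 24, 16 and 3 in knockout libraries A, B and C. Against a floor of 3 counts over the heterozygous group, its summed knockout reads were 14.3-fold higher, scaled for library size. That value leaves out counting error in the knockout reads and the spread between libraries, and knockout C held no more reads than the floor. Wnt8a passed when no filter on low values was set and by DESeq2. Dkk1, the classic secreted inhibitor of Lrp5 and Lrp6, had 16, 0 and 7 reads against 0, 0 and 2, a ratio of 11.5 scaled for library size with a counting interval of 2.85 to 101, and heterozygous B was at 0. Wnt6 had 16, 11 and 1 reads against 0, 11 and 9, Rspo1 had 0, 0 and 9 against 3, 8 and 0, and Wnt8b had 8, 0 and 0 against 11, 5 and 1. The remaining 6, Wnt1, Wnt2, Wnt3a, Wnt9b, Wnt16 and Dkk4, had at most 8 reads in any library.

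Set on a scale of normalized reads per kilobase of exon, over the 6 libraries, the ligands were led by Wnt7b (491), Wnt7a (362) and Wnt4 (210), followed by Wnt5a (64.1). The ranges of Wnt7b and Wnt7a over the libraries overlapped. Wnt4 took 75.8 per kilobase on average in heterozygous cells and 344 in knockout cells, while Wnt5a took 93.0 and 35.3, so their means stood in opposite order in the genotypes. Library by library, Wnt5a stood above Wnt4 in heterozygous A and B, but heterozygous C had the order of the 3 knockout libraries (76.0 for Wnt4 and 64.0 for Wnt5a). Summed over all ligands, the level ran from 906 to 1073 per kilobase in the heterozygous libraries and from 1466 to 1737 in the knockout libraries. Different genes led this sum: Wnt4 made up 37.9% of it in knockout A, and Wnt7b, which was not called, 53.3% in knockout C. The 10 frizzleds together ran from 1423 to 1645 against 1663 to 2717, and the 4 TCF/LEF factors from 258 to 347 against 486 to 578. Sums over the 5 coreceptors ran from 366 to 417 against 294 to 321, and Ryk, at 265 per kilobase, made up most of each. Inhibitors at the membrane or in the cytoplasm summed to 804 to 889 against 977 to 1089. The sums overlapped for ligand processing (908 to 951 against 672 to 1016) and for R-spondins and Lgr receptors (98.3 to 146.3 against 75.2 to 146.4). Secreted inhibitors, of which Dkk3, Sfrp1 and Notum were the highest, overlapped in their sum, from 5979.8 to 9138 against 7552 to 18698. Dkk3 alone made up 59.1% to 67.4% of that sum in each library, so the range is mostly that of Dkk3. The sum is one of RNA from genes grouped under this role, and how far each product limits Wnt signals was not tested.

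**Figure D3:**
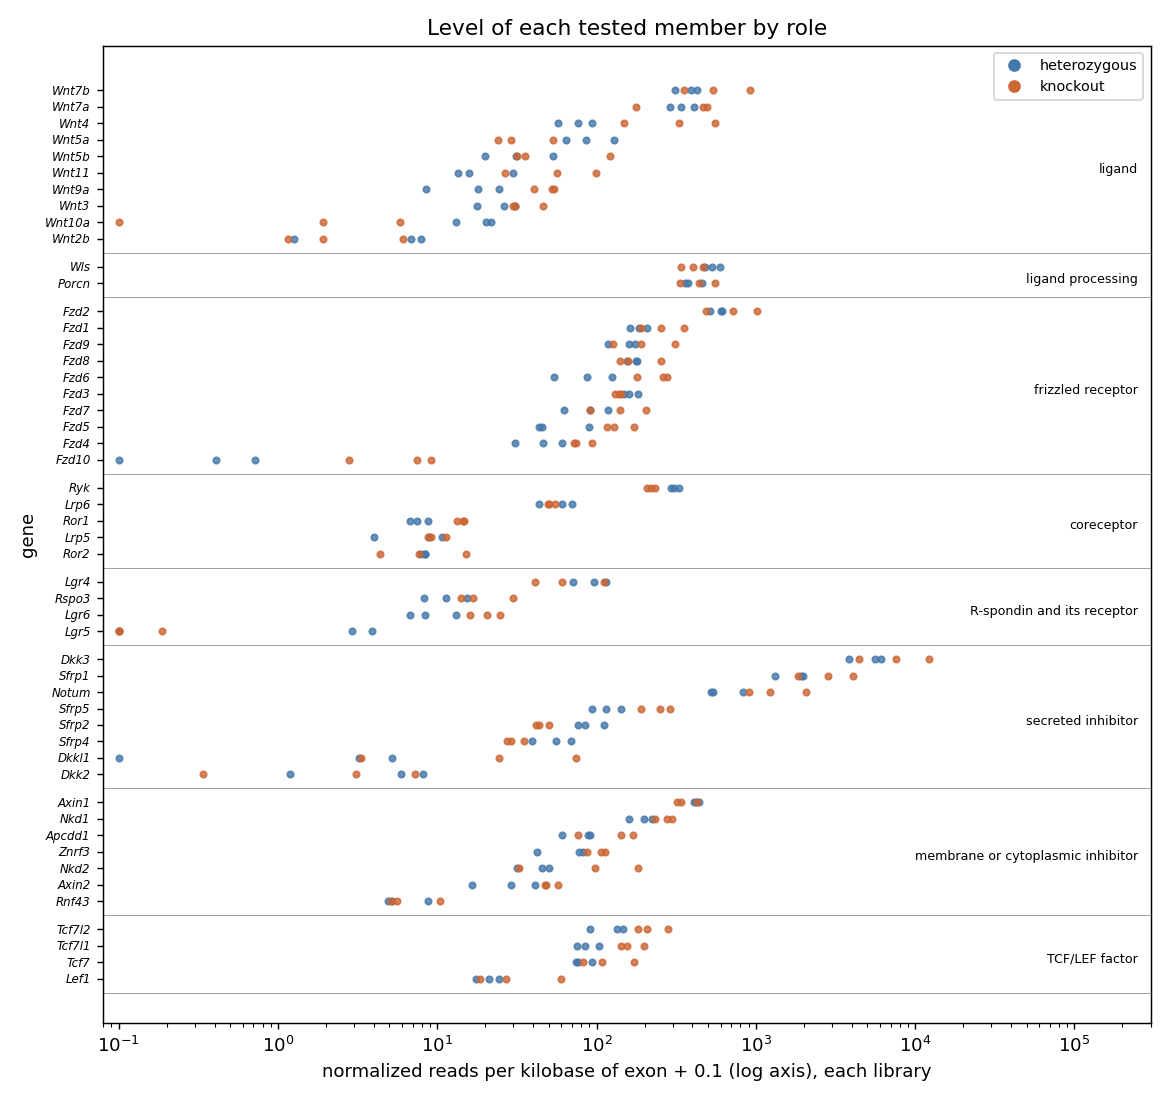
Normalized reads per kilobase of exon of each tested member in each library, with a small constant added and on a log axis, ordered by mean level within a role. Wnt7b and Wnt7a lead the ligands, Fzd2 the frizzleds and Dkk3 all members, and the blue and orange points of Wnt4, Fzd6 and Sfrp5 do not overlap.

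The order of the 3 knockout libraries differed from member to member, as it did over all rows. In 12 of the 50 knockout A was the highest and C the lowest of the 3 knockout libraries (26.0% of all rows), Wnt4, Fzd6, Wnt5a, Wnt11, Dkkl1, Nkd2, Apcdd1 and Lef1 among them. In 19 of the 50 the order was the opposite, with C the highest and A the lowest (30.6% of all rows), and these included Notum, Tcf7l2, Fzd10, Wnt10a, Sfrp1, Axin2, Wnt7b and Dkk3. With shares this near to those of all rows, the counts describe the libraries and are not a result about the Wnt genes. Some sums of cell type markers took one or the other of these orders. Ependymal markers summed to 20862, 18599 and 18038 normalized reads in the heterozygous libraries and to 110965, 68740 and 26272 in knockout A, B and C. Of the 16 genes of that list 10 rose by limma, and edgeR called 14 and DESeq2 15. Endothelial markers summed to 9138, 11289 and 8641 against 51056, 18867 and 6848, and none of the 14 was called (2 at an unadjusted p under 0.05, 0 by edgeR and 5 by DESeq2). Mural markers summed to 9267, 11226 and 20022 against 36129, 29376 and 13436, and 2 of 12 rose by limma (3 called by edgeR and 5 by DESeq2).

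The sum for quiescent stem cells and astrocytes was 734406, 1019408 and 1132039 in knockout A, B and C, the same order as for Notum, Tcf7l2 and Wnt7b. Blood cell markers summed to 21998, 5405 and 686 in those libraries and to 1488, 3267 and 4385 in the heterozygous ones, with Cd3e and Ly6g at 0 in all 6. Choroid plexus markers summed to 49625 in heterozygous A, against 810.3 and 817 in heterozygous B and C and 1295 to 3852 in the knockout libraries. Microglial markers summed to 3207, 5559 and 13497 against 19673, 4934 and 4924, fibroblast and meningeal markers to 848, 757 and 4079 against 2307, 1785 and 3068, oligodendrocyte lineage markers to 50715, 72229 and 73747 against 98180, 78606 and 97882, and mature neuron markers to 3861, 3899 and 2886 against 3000.02, 3250.02 and 3619. Although the sums for mature neurons overlapped, 6 of the 10 tested genes of that list were called, 4 lower and 2 higher, with a median of -1.86. The part that any of these cell types plays in the differences of the Wnt genes was not tested.

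**Figure D4:**
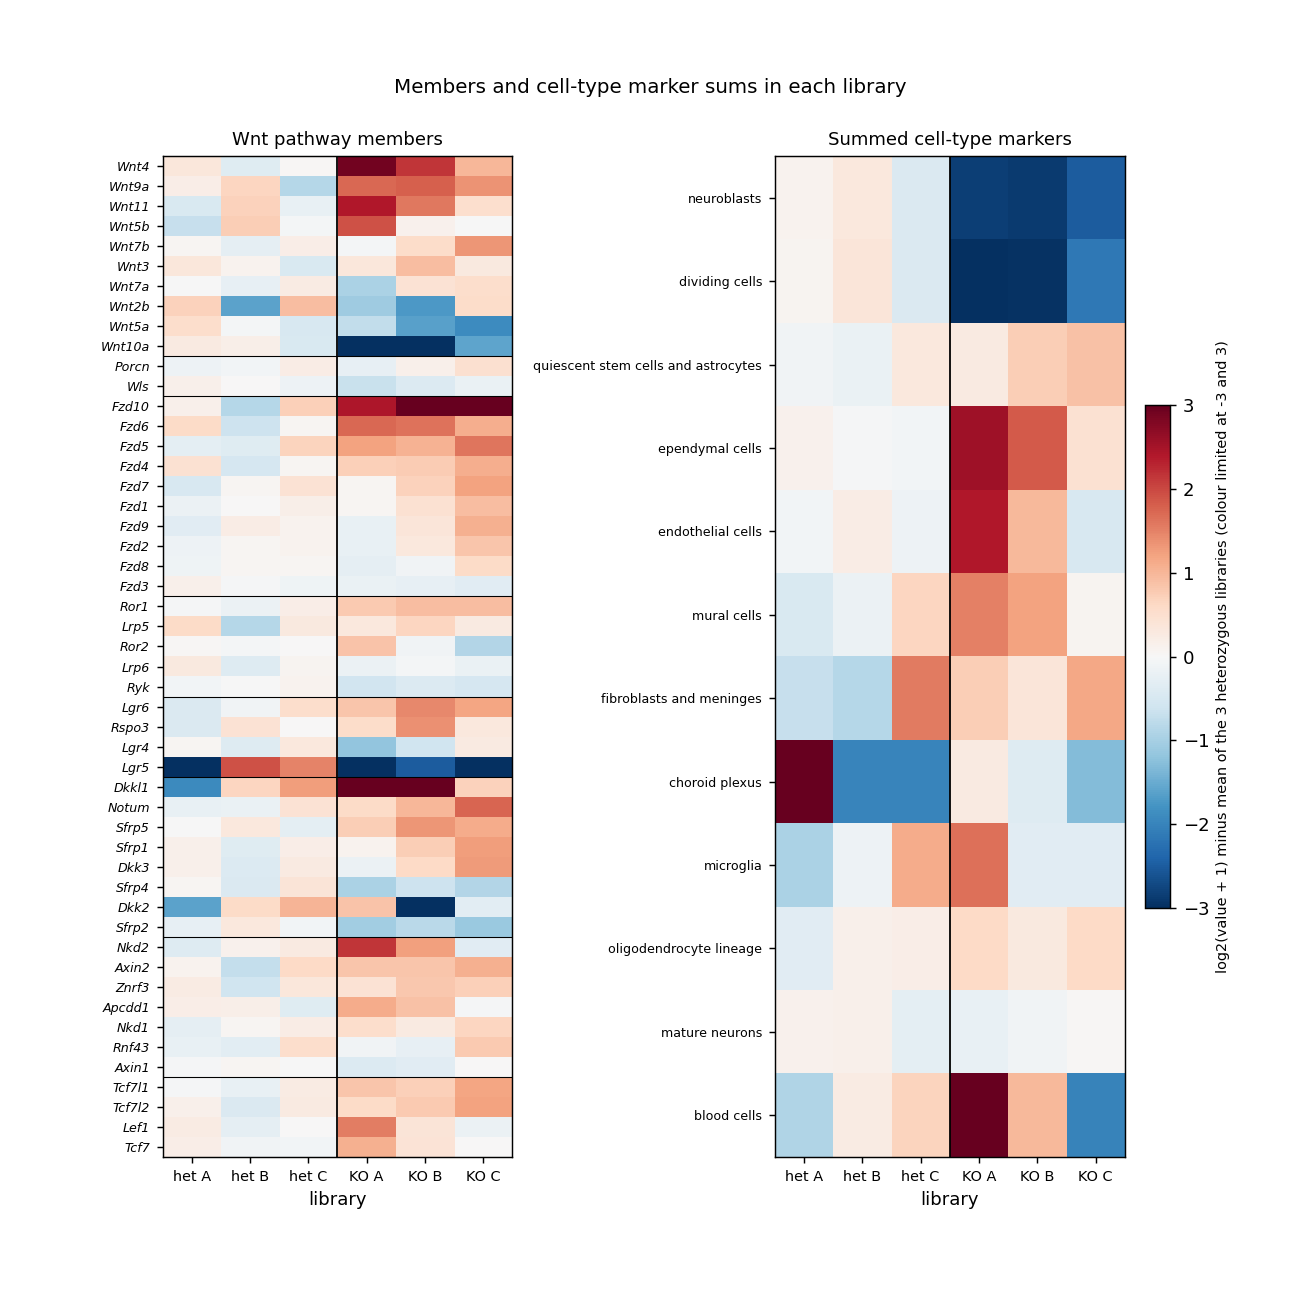
Each tested member (left) and each summed marker list (right) in the 6 libraries, as log2(value + 1) minus the mean of the 3 heterozygous libraries, with colour limited at -3 and 3. Wnt4, Wnt11, Nkd2 and Dkkl1 fade from knockout A to C as the ependymal and endothelial sums do, while Notum, Sfrp1 and Wnt7b deepen from A to C.

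Other genes of the pathway, in 4 lists with 109 genes of which 97 were tested, were set beside the members. Together 12 rose and 14 fell (26.8% called, against 15.8% of all rows), with a median of 0.15, against 0.05 over all rows. In the cytoplasmic and nuclear core, which holds Dishevelled, destruction complex, β-catenin and TLE corepressor genes, 5 of 32 fell and 27 were not called (15.6% called, against 15.8% of all rows). Of the 32 differences 24 were negative, where 8703 of all 18227 rows were, and the median was -0.40. Csnk1e, a kinase that acts on Dishevelled, was read at 5237, 6107 and 4153 against 1938, 1637 and 2035, with no overlap (log2 -1.45 ± 0.20, adjusted p = 0.00284). Apc2, a neural relative of the scaffold Apc, and the corepressors Tle2 and Tle1 fell by 1.43, 1.24 and 0.90 on the log2 scale (adjusted p = 0.00488, 0.00685 and 0.0458), and edgeR did not call Tle1 (adjusted p = 0.0541). Ctnnb1, which encodes β-catenin and was singled out after its values were seen, was read at 13212, 10369.8 and 9007 against 6099, 6876 and 7344, with no overlap (log2 -0.67 ± 0.20, adjusted p = 0.049 by limma and 0.0533 by edgeR).

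Of 25 tested extracellular modulators and coreceptors, 2 rose and 4 fell (24.0% called, against 15.8% of all rows). Cthrc1, a secreted protein that favours Wnt and Ror2 binding, and Kremen1, a receptor of Dickkopf proteins, rose by 1.204 ± 0.25 and 1.07 ± 0.24 on the log2 scale (adjusted p = 0.0163 and 0.0209). Tmem198, which acts on Lrp6, and the heparan sulfate carrier Sdc1 fell by 1.69 and 1.59 (adjusted p = 0.00305 and 0.00928). In the planar cell polarity and noncanonical list 8 of 24 rose and 2 fell (41.7% called, against 15.8% of all rows). In that list 20 of 24 differences were positive, against 52.3% of all rows, and the median was 0.52. Celsr1, an atypical cadherin of planar polarity, was read at 568, 337 and 707 against 1586, 1437 and 2425, with no overlap (log2 1.78 ± 0.31, adjusted p = 0.00789). Celsr3, its relative in axon guidance, was read at 709, 934 and 655 against 151, 92.6 and 148 and moved the opposite way (log2 -2.56 ± 0.29, adjusted p = 0.00131). Musk, a kinase with a frizzled-like domain, rose by 1.97 ± 0.38 (adjusted p = 0.0123), and Dact1, which binds Dishevelled, fell by 1.83 (adjusted p = 0.0101).

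The β-catenin targets outside the 65 genes gave 2 that rose and 3 that fell of 16 tested (31.25% called, against 15.8% of all rows), with a median of 0.31. Ccnd1, the gene of cyclin D1, rose from 240.1, 193 and 303 to 503, 453 and 711 (log2 1.17 ± 0.28, adjusted p = 0.0249). Sp8, a transcription factor of olfactory interneuron precursors, was read at 1639, 1513 and 938 against 101, 107 and 148 (log2 -3.49 ± 0.29, adjusted p = 0.000886). Neurod1 and Prox1, both factors of differentiating neurons, fell by 3.001 and 2.00 on the log2 scale (adjusted p = 0.012 and 0.0139). The 18 tested neuroblast markers also fell, and the part of neuroblast number in the values of Sp8, Neurod1 and Prox1 was not tested.

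**Figure D5:**
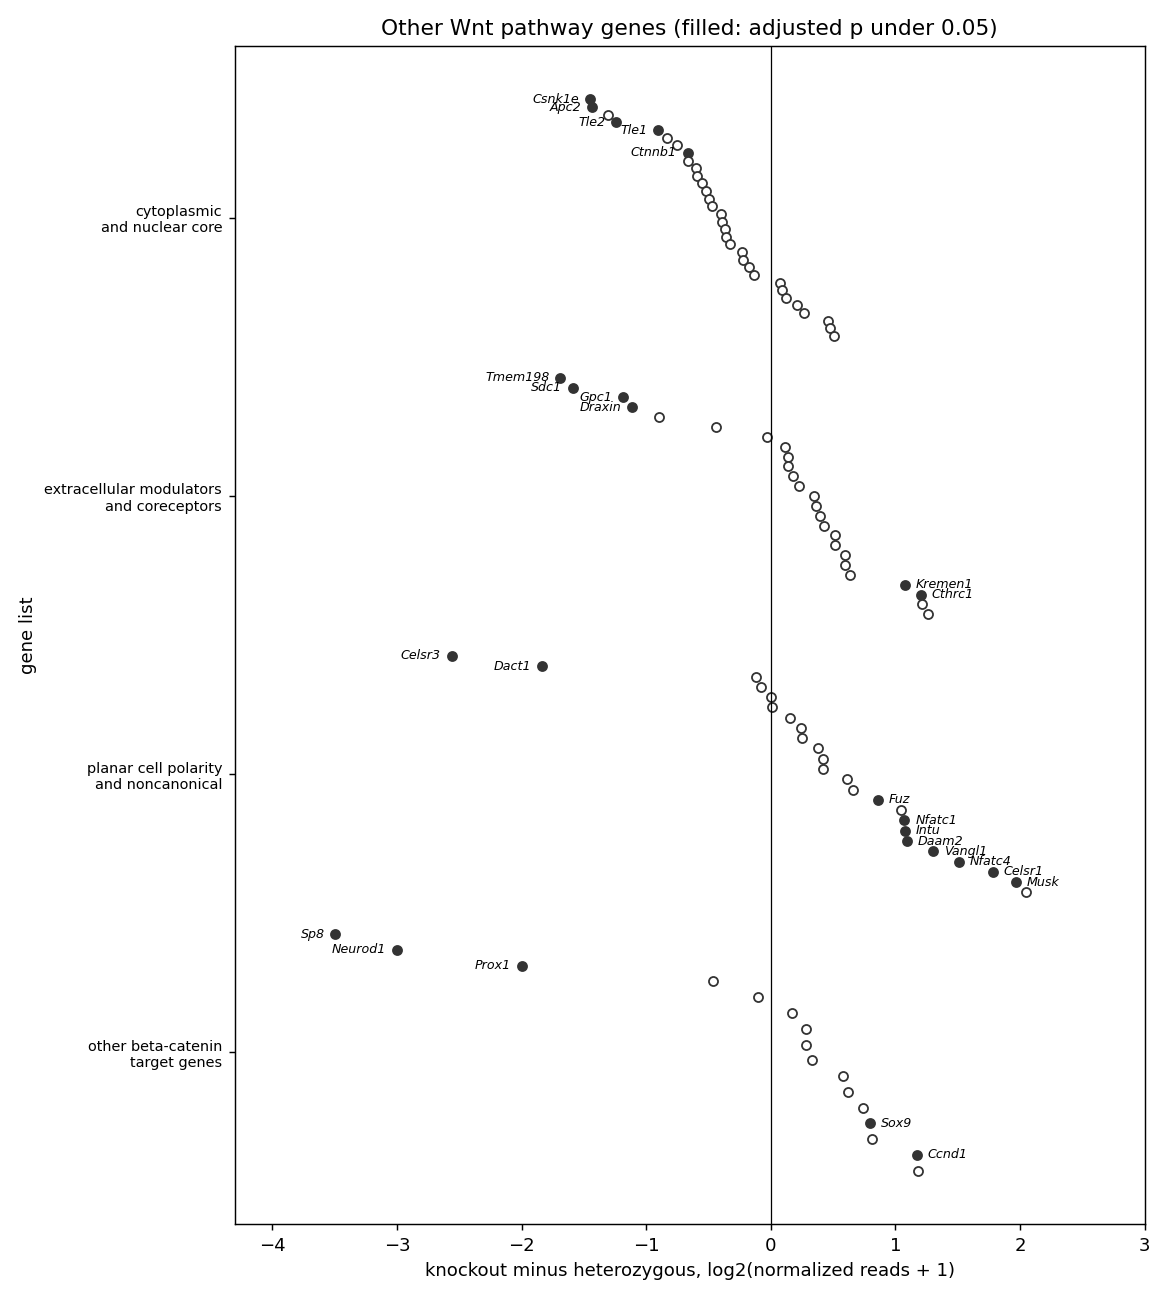
Difference between knockout and heterozygous libraries in log2(normalized reads + 1) for the 97 tested genes of the 4 other pathway lists, ranked within each list. Filled and named points have an adjusted p under 0.05 by limma: the core list has 5, all to the left of 0, and the planar cell polarity list 8 to the right and 2 to the left.

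The authors' deposited table of this comparison gave an adjusted p to 61 members and called 20 of them at 0.05, 16 higher and 4 lower, where it called 14.3% of all rows with an adjusted p. All 11 members called by limma were among them, in the same direction. The 9 further members in the authors' deposited table were Fzd4, Wnt11, Wnt8a, Nkd2, Dkkl1, Sfrp1 and Lgr6, higher, and Lgr5 and Sfrp2, lower. For Wnt11, Dkkl1 and Nkd2, knockout C was within the heterozygous range, and for Lgr5 heterozygous A held no read.

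Exons of 11 tested members share bases with a gene on the opposite strand. Among the called ones, beside Notum, this was 17.8% of the exon bases of Fzd5 (Gm38058, read at a mean of 19.4), 3.15% of Fzd6 (Gm26704, 45.4), 4.58% of Wnt5a (Gm2670, 7.31) and 4.56% of Tcf7l1 (Gm15401, 2.51). How the shared reads were assigned is not given in the sources used here.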

How the data were processed

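RNA was made into libraries with the SMART-Seq v4 and Nextera XT kits, per the labels' protocols. HISAT2, featureCounts (Subread) and DESeq2 and the build GRCm38 are named in the submitters' processing notes, with no versions or settings. The authors deposited gene values as a signal, reads divided by a size factor per library, beside log2 fold changes, p-values and weighted adjusted p-values, and other columns such as a test score that were not used here. Whole reads could be recovered for 100% of values within 0.001 reads.

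Values were tested as log2(normalized reads + 1) with limma 3.58.1 (R 4.3.3) on the 18227 rows with a mean of at least 10, 3 libraries against 3, with Benjamini-Hochberg adjustment over all of them. An exact permutation test of 3 against 3 cannot go below p = 0.1. Recovered reads were tested with edgeR 4.0.16 (quasi-likelihood, TMM) and DESeq2 1.42.0 as alternatives. Other alternatives were upper-quartile scaling, TMM rescaling, no filter, a mean of at least 50, pseudocounts of 0.5 and 5, the letters as a replicate block, and fits that dropped 1 library each. The fit was tested on simulated data.

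All 65 members matched a gene of the GENCODE annotation of GRCm38 by identifier, and levels per kilobase use the union of exons over all isoforms. Intervals for ratios of reads cover counting error only. Ratios were computed from summed reads scaled for library size. Depth ranged from 19798675 to 25982361 reads. All 6 values were given for every called member, for the member with the smallest p in a role without calls and for the highest per kilobase in each role, and for others as examples. Of the other pathway lists, up to 4 called genes each were named by smallest p. The members and the lists were chosen with earlier results of these data known.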

Additional observations from a re-analysis of the deposited data

How the results depend on the processing

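No called member changed sign in the alternatives that gave it a value, which were 10 of 15 for Fzd10, 14 for Wnt10a and 15 for each of the other 9. Of 731 recomputed member values, 52 lost their call, 14 gained one and 665 kept their side of the threshold. Among the uncalled values 16 changed sign, in 8 members: Ror2 under edgeR with either scaling, under DESeq2 and without knockout C, Wnt7a under TMM rescaling and without heterozygous A, heterozygous B, knockout B or knockout C, Rnf43 without heterozygous B or knockout C, Lrp5 without heterozygous B, Lrp6 without heterozygous A, Dkk2 without knockout B, and Porcn and Fzd8 without knockout C (Fzd8 to -0.19). The 9 members called higher became 15 with DESeq2 and 0 to 9 when a library was left out, and the 2 called lower became 4 with DESeq2, 1 with edgeR under TMM or upper-quartile scaling, 1 with no filter, 1 with a mean of at least 50, 1 with a pseudocount of 0.5 and 0 to 2 when a library was left out. Of the other pathway genes, the 12 called higher became 1 to 16 and the 14 called lower 6 to 16 when a library was left out. With 2 libraries in a genotype, fewer samples enter each fit.

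With the letters A to C as a replicate block, limma called 7 members, 5 of them higher and 2 lower, and 12.7% of all rows. Fzd10, Sfrp5, Tcf7l1 and Tcf7l2 were lost, and no member was gained. Same-lettered libraries did not deviate together (correlations across genes of -0.07, 0.02 and -0.10 for A, B and C). Pairs with different letters gave -0.09 to 0.16. No pairing by letter was seen, and the block was not used in the main fit. With 3 libraries per genotype these correlations cannot settle whether a letter stands for a shared day or litter, which the labels do not say. The filter at a mean of 10 left out 15 members. With no filter limma gave 61 of the 65 a value and called Wnt8a, and the other 4 were at 0 in every library.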

Other observations

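Which members passed depended on which knockout library was left out. Without knockout A, limma called Sfrp1 (log2 difference 0.99, adjusted p = 0.031) and Wnt7b (0.93, 0.0474), neither of which was called with all 6 libraries, and 8 of the 11 members were called again. Without knockout C, it called Nkd2 (1.69, 0.00631), Wnt11 (2.00, 0.00966), Apcdd1 (0.99, 0.0155) and Dkkl1 (4.18, 0.0192), and 7 of the 11 were called again. The lost ones without knockout C were Fzd10, Notum, Tcf7l1 and Tcf7l2, and Fzd10 then fell under the mean of 10 normalized reads.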
